A study of Mus musculus with 2 samples.

Results

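Astrocytes rich in *Gfap* were taken from 2 droplet scRNA-seq libraries of mouse cerebral cortex, and numbered 34 of 9540 cells in the Control library and 274 of 8113 cells in the white matter injury (WMI) library, 308 of 17653 in all. A cell was a barcode with at least 1000 unique molecular identifiers (UMIs, each standing for 1 captured RNA molecule), at least 500 genes and at most 10% of UMIs from mitochondrial genes. An astrocyte held at least 3 of 8 astrocyte genes (*Acsbg1*, *Atp13a4*, *Nwd1*, *Daam2*, *Prdm16*, *Slc39a12*, *Gja1* and *Aqp4*) and at most 2 UMIs of the neuronal genes *Slc17a7*, *Gad1* and *Gad2* together. A Gfap-rich astrocyte also held at least 2 UMIs of *Gfap*, and the other astrocytes, with 0 or 1 UMI, are called low-Gfap astrocytes here and numbered 483 in Control and 336 in WMI.

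The series addressed endothelin-1 and its B receptor in the failed maturation of oligodendrocytes after preterm white matter injury. Both libraries came from C57BL/6 mice, 1 labelled as control and 1 from animals with a ligated right carotid artery and a period of hypoxia. The sample labels place surgery at postnatal day 7, hypoxia at 1 h and collection at postnatal day 14, from the ligated side and the same side of controls, and describe nuclei. The study's methods text instead gives postnatal day 3, 90 min in 6% oxygen and dissociated cells, and its results text gives collection at postnatal day 10. The text of the study also speaks of control and WMI sides, so that the Control tissue may be from control animals, as in the labels, or from the other hemisphere. With 1 library per group, no test of the injury was possible, and the number of animals behind each library is not given in the labels. All values below compare these 2 libraries, and their 95% intervals cover counting error only, since cells of 1 library are not replicates and the variation between mice is not in them.

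Astrocytes clear glutamate and potassium from around synapses, couple through gap junctions, cover blood vessels with their endfeet and supply neighbours with lipid. *Gfap* encodes the intermediate filament protein by which astrocytes are classically stained. It is abundant in astrocytes of the white matter and of the brain surface, sparse in those of the cortical grey matter, and is made in larger amounts when astrocytes react to injury, a response in which signalling from IL-6 family cytokines through STAT3 is known to take part. A cell with *Gfap* can therefore belong to a place or to a state, and the rule used here does not separate the 2.

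*Gfap* (chr11:102887336-102900912, minus strand, GRCm38) was searched in the 250 bases before its start for TTCNNNGAA, the letters STAT factors are known to bind, which read the same on both strands. The sequences are from RefSeq on GRCm38.p6, whose *Gfap* start lies inside the longer gene span given here. Its window, shown because *Gfap* defined the cells, held no match. The windows of *Steap4*, on the list of genes common to reactive astrocytes, and of *Socs3*, the feedback inhibitor of STAT3 signalling, held 1 match each, given in capitals. *Acsbg1*, an acyl-CoA synthetase gene of the rule outside both lists, also held a match, which began 26 bases before its start.
Gfap, chr11:102897201-102897450, minus strand: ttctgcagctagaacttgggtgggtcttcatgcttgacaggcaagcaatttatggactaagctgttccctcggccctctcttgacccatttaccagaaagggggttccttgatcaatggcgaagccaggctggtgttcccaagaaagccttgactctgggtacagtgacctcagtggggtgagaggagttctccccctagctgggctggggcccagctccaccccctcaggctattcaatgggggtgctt
Steap4, chr5:7960222-7960471, plus strand: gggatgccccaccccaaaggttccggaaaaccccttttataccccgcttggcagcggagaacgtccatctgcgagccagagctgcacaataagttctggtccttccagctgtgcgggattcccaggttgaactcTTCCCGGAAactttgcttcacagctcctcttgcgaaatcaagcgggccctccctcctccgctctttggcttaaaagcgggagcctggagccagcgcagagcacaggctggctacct
Socs3, chr11:117969367-117969616, minus strand: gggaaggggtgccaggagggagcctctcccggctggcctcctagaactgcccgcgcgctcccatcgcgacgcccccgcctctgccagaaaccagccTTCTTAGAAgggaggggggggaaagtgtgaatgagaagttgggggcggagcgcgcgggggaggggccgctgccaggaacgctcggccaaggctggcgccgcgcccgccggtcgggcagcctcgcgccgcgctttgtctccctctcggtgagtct
The match began 116 bases before the start in *Steap4* and 154 bases before it in *Socs3*. Of 13 pan-reactive genes 1 held the letters, as did 1 of 12 genes of the cytokine pathway with a window, against 8.13% of 27025 genes. A match is a description of letters and not evidence of binding.

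The share of Gfap-rich astrocytes was 0.356% of cells in Control (Clopper-Pearson interval 0.247 to 0.498%) and 3.38% in WMI (2.99 to 3.79%). The difference was 3.02 percentage points (2.61 to 3.45), a ratio of 9.48. Low-Gfap astrocytes were 5.06% of Control and 4.14% of WMI cells, a difference of -0.92 points (-1.55 to -0.29). Of all astrocytes that met the rule apart from *Gfap*, 34 of 517 (6.58%, 4.60 to 9.07%) in Control and 274 of 610 (44.9%, 40.9 to 49.0%) in WMI were rich in *Gfap*. The size of the difference depended on the rule. It was 1.36 points when no neuronal UMI was allowed, 1.34 when cells were thinned to 2000 UMIs first, and 0.413 (0.225 to 0.619) when members with at least 2 markers of microglia, oligodendrocyte lineage, endothelium, pericytes or fibroblasts were left out, which kept 17 Control and 48 WMI members.

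Within these astrocytes the whole distribution of *Gfap* UMIs differed between the libraries. Control held 422 cells at 0 UMIs, 61 at 1, 14 at 2, 17 at 3 to 4 and 3 at 5 to 9, and none at 10 or more. WMI held 225 cells at 0 UMIs, 111 at 1, 56 at 2, 63 at 3 to 4, 78 at 5 to 9 and 77 at 10 or more. Among the members the median was 3 UMIs in Control and 5 in WMI, and the highest cell held 8 and 53. The cells just inside the limit (2 UMIs) thus numbered 14 and 56, and those just outside it (1 UMI) 61 and 111. The limit on neuronal UMIs left out 6 Control and 30 WMI cells that held at least 3 of the 8 astrocyte genes and at least 2 *Gfap* UMIs. Of all cells, 14 in Control and 285 in WMI held at least 2 *Gfap* UMIs but did not meet the rule.

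**Figure D1:**
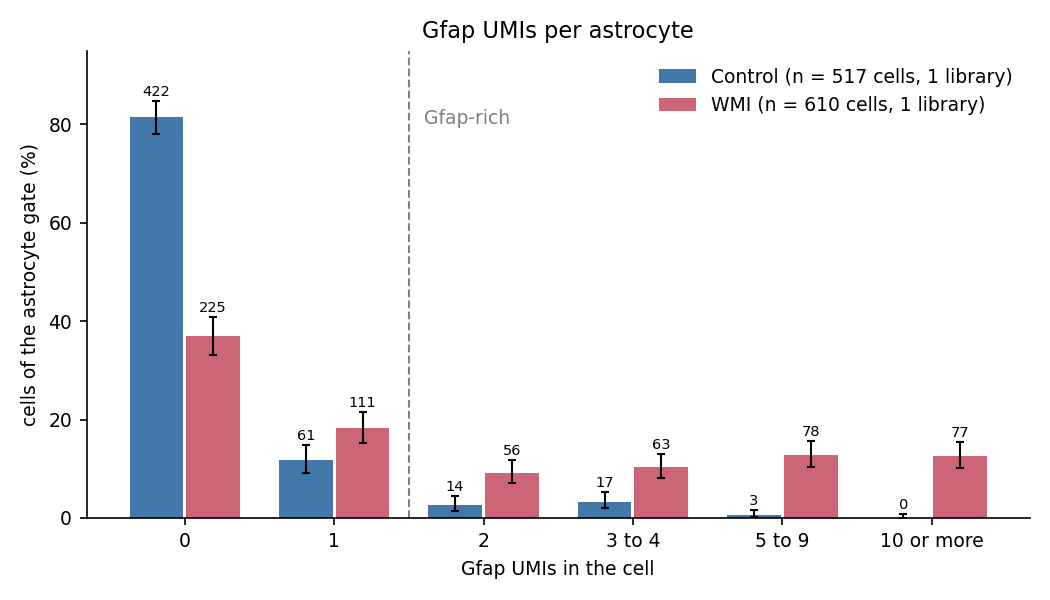
Astrocytes by the number of *Gfap* UMIs in the cell (horizontal axis, 6 classes), with the percentage of the library's astrocytes on the vertical axis, for Control (517 cells) and WMI (610 cells). Cells with 10 or more UMIs numbered 77 in WMI and 0 in Control.

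Free RNA in the droplets gives UMIs to cells that do not express a gene, and *Gfap* was more widespread outside astrocytes in WMI. At least 2 *Gfap* UMIs were found in 0.0567% of excitatory neurons in Control and 3.73% in WMI, at median depths of 10219 and 11152 UMIs. In microglia the shares were 0.164% and 3.09%, and in cells of the oligodendrocyte lineage 0.0708% and 3.27%. The share among WMI astrocytes, 44.9%, was above all of these. How much of the difference in the number of members comes from free *Gfap* RNA was not tested.

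By the rule each member held astrocyte genes, with a median of 6 of the 8 astrocyte genes in Control and 5 in WMI. Of these cells none of the 34 and 16 of the 274 held all 8, and 5 and 50 were at the lower limit of 3. Genes that the rule did not use bear on the label. *Slc1a2*, the main glutamate transporter of astrocytes, was 10.3-fold and 10.0-fold above excitatory neurons in Control and WMI, and *Slc1a3*, the other glial transporter, 47.4-fold and 42.5-fold. *Aqp4*, the water channel of astrocyte endfeet, was itself a gene of the rule. Of the 5 markers given for these cells, *A2m* had no UMI in any Control member. *Acsbg1*, also a given marker and a gene of the rule, was lower in the members than in low-Gfap astrocytes of Control.

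Depth was close in the 2 libraries. Control members had a median of 5624.5 UMIs (3214 to 16214) and 2557.5 genes, and WMI members 5921.5 UMIs (2028 to 23722) and 2761 genes. Their median mitochondrial shares were 0.0759% and 0.243%. In sum the Control members gave 217767 UMIs and the WMI members 1753935, so that 89.0% of all member UMIs came from WMI. Levels are UMIs of a gene per 1000000 UMIs of the summed cells (CPM) with exact Poisson intervals, and differences are log2 ratios of these levels, WMI over Control, with conditional exact binomial intervals.

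Across the transcriptome, the balance of higher and lower genes between WMI and Control members depended on the minimum and on the cells. Of 3613 genes with at least 100 UMIs over the members, 334 were 2-fold or more higher in WMI (9.24%) and 52 were 2-fold or more lower (1.44%), with a median log2 ratio of 0.106. The minimum favours genes high in WMI: a gene at the same level in both libraries reaches 100 UMIs with 11 of them from Control, and 233 of the 334 higher genes had fewer than 10 Control UMIs. With a minimum of 50 CPM on the mean of both libraries, chosen after seeing these counts, 212 were higher and 86 lower of 3537, and with 200 CPM 25 and 14 of 782. With male cells alone, 63 were higher and 42 lower of 1073, and without the members that held markers of other cell types, 17 and 21 of 496. Low-Gfap astrocytes gave 111 higher (1.71%) and 44 lower (0.677%) of 6497 genes. Their Control cells gave 2772598 UMIs, against 217767 from the Control members. Counting error alone thus passes 2-fold less often there, and the shares of the 2 classes are not like for like.

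*A2m*, which encodes the protease inhibitor alpha-2-macroglobulin (chr6:121635376-121679227, plus strand, GRCm38), separated the libraries most clearly among the given markers. It had 0 UMIs in all 34 Control members and 582 UMIs in WMI, where 101 of 274 members (36.9%, 31.1 to 42.9%) held it and the highest cell had 35. Control was thus at 0 CPM, with a level of up to 13.8 CPM allowed by 3 UMIs, and WMI at 332 (305 to 360), at least 24.1-fold higher when Control is set to 3 UMIs over the group. At the WMI level, 72.3 UMIs would stand in Control. A count of 0 of 34 cells, read as 3 of 34, allows a share of cells with a UMI of up to 8.82%. Its Clopper-Pearson interval reaches 10.3%. *Acsbg1*, another given marker, was lower in WMI members, with a log2 ratio of -0.74 (-1.22 to -0.24), and -0.65 in low-Gfap astrocytes. In Control its log2 ratio of members over low-Gfap astrocytes was -0.52.

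Outside the members *A2m* was low in both libraries. In low-Gfap astrocytes its level was 4.69 CPM in Control and 18.3 in WMI, a log2 ratio of 1.97 (1.00 to 3.02), and in excitatory neurons 0.258 and 3.47 CPM. After each cell was thinned to 1000 UMIs, 0% of Control and 14.6% of WMI members held it, against 0.621% and 2.68% of low-Gfap astrocytes and 0.0567% and 0.512% of excitatory neurons.

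The other genes common to reactive astrocytes were together higher in WMI members. Of the 13 pan-reactive genes, 5 had a UMI in the 217767 UMIs of Control and all 13 in the 1753935 of WMI, numbers that depend on this difference in depth, and their summed level without *Gfap* had a log2 ratio of 4.24 (3.12 to 5.69). The 4 that reached 100 UMIs, *Cd44*, *Aspg*, *Cp* and *Osmr*, were all 2-fold or more higher in WMI, against 9.24% of all genes. They reached that minimum through WMI alone, and their count is given as a description. *Cd44*, the receptor for hyaluronan, held 3 UMIs in 3 Control members and 259 UMIs in 110 WMI members (40.1%), or 13.8 and 148 CPM, a log2 ratio of 3.42 (1.86 to 5.71), with 1.39 in low-Gfap astrocytes. *Osmr*, the receptor subunit for oncostatin M, had 0 and 108 UMIs (at least 4.47-fold higher).

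*Cp*, the copper-carrying ferroxidase ceruloplasmin, had 0 and 154 UMIs (at least 6.37-fold higher), and *Aspg*, an asparaginase, had 1 and 133, a log2 ratio of 4.05 (1.54 to 9.36). Of those below 100 UMIs, *Vim*, the partner filament of *Gfap*, had 1 and 63 UMIs and a log2 ratio of 2.97 (0.44 to 8.29). *Serpina3n*, a secreted protease inhibitor, had 1 and 50 UMIs. *Cxcl10*, an interferon-induced chemokine, had 0 and 49, of which 22 were in 1 cell, *S1pr3*, a sphingosine phosphate receptor, 0 and 41 (at least 1.70-fold higher) and *Steap4*, a metalloreductase, 0 and 39, of which 10 were in 1 cell. *Lcn2*, *Timp1* and *Hspb1* stood at 0 in Control and at 10, 9 and 1 UMIs in WMI, too few for a bound. The list as a whole was also higher in low-Gfap astrocytes of WMI, with a log2 ratio of 1.57 that includes *Gfap*.

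The sets known as A1 (neuroinflammatory) and A2 (ischaemic) were both higher in WMI as sums. The 11 A1 genes stood at 50.5 CPM in Control and 278 in WMI, a log2 ratio of 2.46 (1.61 to 3.47). Most of that was *Ggta1*, a galactosyltransferase, with 6 and 336 UMIs and a log2 ratio of 2.80 (1.66 to 4.25), which was 4.34 without a Control cell that held 4 of the 6. In low-Gfap astrocytes *Ggta1* stood at 3.48, and the A1 sum at 0.74 (0.40 to 1.07). *Serping1*, the C1 inhibitor, had 0 and 47 UMIs. Of the 12 A2 genes none reached 100 UMIs, and together they gave 1 UMI in Control and 208 in WMI, a log2 ratio of 4.69 (2.20 to 10.00) against 0.62 in low-Gfap astrocytes. The highest were *Cd109*, a surface antagonist of TGF-beta signalling, with 0 and 71 UMIs (at least 2.94-fold higher), and *Ptx3*, a secreted pentraxin, with 0 and 52 (at least 2.15-fold). The difference between Gfap-rich and low-Gfap astrocytes in these ratios was not tested.

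**Figure D2:**
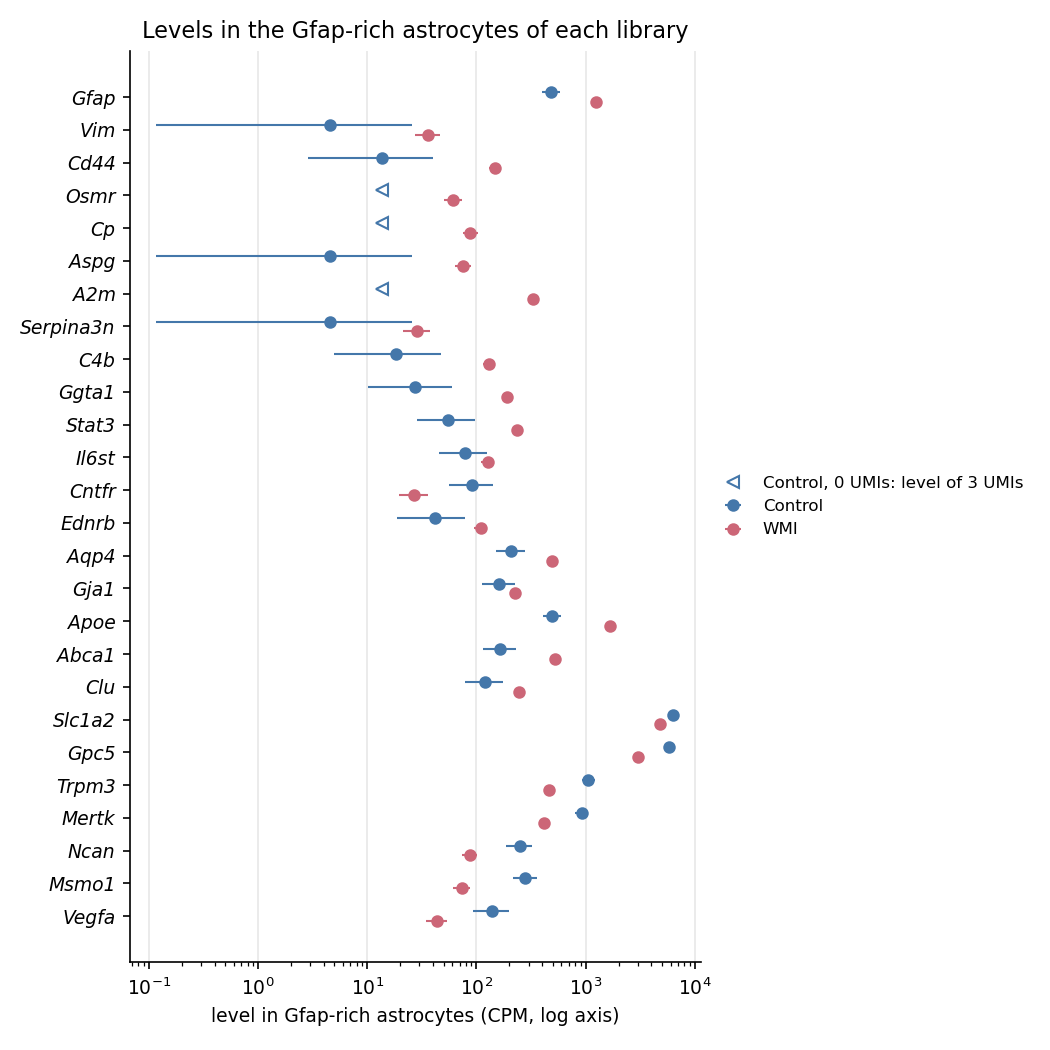
Levels in CPM (horizontal log axis, bars are exact Poisson intervals) of 26 genes in the Gfap-rich astrocytes of Control and WMI, with 1 point per library and open triangles at the level of 3 UMIs for a gene with 0 UMIs. *A2m* stood at 332 CPM in WMI members and at 0 in Control members, whereas *Slc1a2* lay between 4752 and 6264 CPM in the members.

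In the cytokine pathway *Stat3* and the receptor subunit *Osmr* were higher in WMI, and *Cntfr* was lower. *Stat3*, the transcription factor downstream of the IL-6 family, held 12 UMIs in 10 Control members (at most 2 in a cell) and 409 UMIs in 177 WMI members (at most 10), or 55.1 and 233 CPM, a log2 ratio of 2.08 (1.26 to 3.05). In low-Gfap astrocytes its log2 ratio was 0.99 (0.66 to 1.31). *Il6st*, the shared receptor subunit gp130, had 17 and 223 UMIs and a log2 ratio of 0.70 (-0.01 to 1.51), an interval that reached 0. With 1 Control cell left out at a time, this ratio lay between 0.63 and 0.85. *Cntfr*, the receptor subunit for ciliary neurotrophic factor, went the other way with 20 and 47 UMIs, a log2 ratio of -1.78 (-2.56 to -0.94), against -0.13 in low-Gfap astrocytes. *Socs3* had 0 and 17 UMIs, and *Il6ra*, the IL-6 receptor, 0 and 44 (at least 1.82-fold higher). Of the 13 genes of this list 5 reached 100 UMIs, 2 of them were 2-fold or more higher (*Stat3* and *Osmr*, the latter through WMI alone) and none lower, against 9.24% and 1.44% of all genes.

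A list of 23 astrocyte genes was slightly lower in WMI members as a sum. It was named for glutamate, potassium, water and coupling, but also held other genes, among them *Gpc5*, *Sox9*, *Nfia*, *Nfib* and *Fgfr3*. The list summed to 20784 CPM in Control and 16845 in WMI, a log2 ratio of -0.30 (-0.35 to -0.26). Of 19 tested, 1 was 2-fold or more higher and 1 lower, against 9.24% and 1.44% of all genes, and their median was -0.30. *Gpc5*, which is also on the grey matter list below, stood at -0.96 (-1.05 to -0.87), and the sum without it was not taken. *Slc1a2* had a median of 37.5 UMIs per Control cell (6 to 107) and 23 per WMI cell (0 to 127), and levels of 6264 and 4752 CPM, a log2 ratio of -0.40 (-0.48 to -0.31) that was -0.36 in low-Gfap astrocytes. The cells overlapped widely. *Slc1a3* differed by 0.10 (-0.05 to 0.26).

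*Glul*, glutamine synthetase, was lower by a log2 ratio of -0.84 (-1.27 to -0.38), whereas the ratios of *Kcnj10*, the inward potassium channel, at -0.32 (-1.05 to 0.48), and of *Gja1*, connexin 43 and a gene of the rule, at 0.49 (-0.01 to 1.03), had intervals that reached 0. *Aqp4*, also a gene of the rule, was at 207 CPM in Control and 494 in WMI. The gene past 2-fold on the high side was *Sox9*, a transcription factor of the astrocyte lineage, with 6 UMIs in 6 Control members and 231 UMIs in 125 WMI members, a log2 ratio of 2.26 (1.11 to 3.72). It reached 100 UMIs through WMI alone. That on the low side was *Fgfr3*, a fibroblast growth factor receptor of astrocytes, with 40 and 113 UMIs, a log2 ratio of -1.51 (-2.04 to -0.95).

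Genes typical of grey matter astrocytes were lower in WMI members as a sum. The 10 of them summed to 21684 CPM in Control and 13977 in WMI, a log2 ratio of -0.63 (-0.68 to -0.59), against -0.29 in low-Gfap astrocytes. Intervals lay below 0 for 6 of the 10, but the share of all genes with such an interval was not counted. *Kcnd2* stood at 0.03 (-0.15 to 0.22), and the interval of *Slc7a10*, at -0.59 (-1.28 to 0.15), reached 0. *Gpc5*, a surface proteoglycan, was in all 34 Control members with a median of 21 UMIs (2 to 136) and in 259 WMI members with a median of 9 (0 to 122). Its level was 5837 CPM in Control and 3002 in WMI, a log2 ratio of -0.96 (-1.05 to -0.87), and -0.28 in low-Gfap astrocytes.

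*Trpm3*, a cation channel, stood at 1061 CPM (928 to 1207) in Control and 459 (428 to 492) in WMI, a log2 ratio of -1.21 (-1.42 to -0.99). A single Control cell held 52 of its 231 UMIs (22.5%), and without that cell the log2 ratio was -0.89, no longer past 2-fold. The list had 7 tested genes, of which *Trpm3* alone was past 2-fold, against 1.44% of all genes on the low side. Genes of white matter and pial astrocytes, by contrast, had a summed log2 ratio of 0.23 (0.00 to 0.47), or 0.76 (0.39 to 1.14) without *Tnc*, their most abundant gene, and of 0.87 (0.75 to 1.00) in low-Gfap astrocytes. Of this list 4 genes were tested and 0 were past 2-fold, where 9.24% and 1.44% of all genes were, so that the count says little about the list.

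Lipid handling genes were higher and cholesterol synthesis genes lower in WMI members as sums. *Apoe*, the main lipoprotein of astrocytes, was in 31 Control members with a median of 2.5 UMIs (0 to 10) and in all 274 WMI members with a median of 8 (1 to 99), and its level was 496 CPM in Control and 1682 in WMI, a log2 ratio of 1.76 (1.48 to 2.05). It was 2.09 in low-Gfap astrocytes, and excitatory neurons also went from 57.8 to 492 CPM. *Abca1*, the pump that loads *Apoe* particles with lipid, had a log2 ratio of 1.65 (1.17 to 2.17), and *Clu*, clusterin, of 1.02 (0.45 to 1.66). The 9 lipid genes summed to 845 and 2620 CPM, a log2 ratio of 1.63 (1.42 to 1.85), and 137 and 682 CPM in excitatory neurons. The 3 of them that were tested were all 2-fold or more higher, against 9.24% of all genes. The part of free RNA in these values was not tested.

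*Msmo1*, a sterol oxidase of cholesterol synthesis, had the lowest ratio of all tested genes. It held 61 UMIs in 22 Control members and 129 UMIs in 65 WMI members, or 280 and 73.5 CPM, a log2 ratio of -1.93 (-2.38 to -1.47). The log2 ratio was -1.57 without the Control cell with the most UMIs (16), and -0.01 in low-Gfap astrocytes. *Acss2*, which makes acetyl-CoA from acetate, had a log2 ratio of -1.71, and -0.36 in low-Gfap astrocytes. A list of 20 cholesterol synthesis genes, added after these values were seen, summed to 928 CPM in Control and 432 in WMI, a log2 ratio of -1.10 (-1.33 to -0.87), or -0.85 (-1.12 to -0.58) without *Msmo1*. In low-Gfap astrocytes the same sum had a log2 ratio of -0.09 (-0.20 to 0.01). Of the 20 genes 2 were tested in the members and 1 was 2-fold or more lower, against 1.44% of all genes. Intervals lay below 0 for 7 of the 20, but the share of all genes with such an interval was not counted.

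The chondroitin sulfate proteoglycans and tenascins, matrix proteins that shape axon growth and perineuronal nets, differed in direction. *Ncan*, neurocan, held 54 UMIs in 22 Control members (at most 11) and 152 UMIs in 101 WMI members (at most 8), or 248 and 86.7 CPM, a log2 ratio of -1.52 (-1.97 to -1.04), whereas in low-Gfap astrocytes its log2 ratio was 0.53. *Tnr*, tenascin-R, was higher in WMI by 1.20 (0.88 to 1.54) with 81 and 1497 UMIs, 142 of the latter in 1 cell, and *Vcan*, versican, by 1.22 (0.35 to 2.24). *Bcan* and *Ptprz1* had log2 ratios of -0.40 and -0.05. In cells of the oligodendrocyte lineage *Tnr* stood at 1482 and 2549 CPM and *Vcan* at 156 and 229. Markers of oligodendrocyte precursors had a log2 ratio of 1.10 (0.62 to 1.62) in the members, or 0.62 (-0.30 to 1.72) without *Lhfpl3*. The part of precursor RNA in these values was not tested. Of 9 genes, 7 were tested, with 2 higher and 1 lower against 9.24% and 1.44% of all genes, and the sum had a log2 ratio of 0.05 (-0.06 to 0.16).

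Among synaptogenic and phagocytic genes, the sum of 10 had a log2 ratio of -0.65 (-0.76 to -0.54), and 1 of 5 tested was past 2-fold, against 1.44% of all genes on the low side. This was *Mertk*, the engulfment receptor, with 200 and 725 UMIs and a log2 ratio of -1.15 (-1.38 to -0.92), against -0.81 in low-Gfap astrocytes. The complement genes were higher as a sum, 27.6 CPM in Control and 191 in WMI. *C4b*, the fourth complement component, carried most of this with 4 UMIs in 2 Control members and 228 UMIs in 132 WMI members, a log2 ratio of 2.82 (1.45 to 4.71), and 3.43 in low-Gfap astrocytes. Of the 4 Control UMIs 3 were in 1 cell, and without it the ratio was 4.79 (2.30 to 10.1).

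Of the endothelin system, the subject of the series, UMIs of the receptors and converting enzymes were found and none of the ligands. The 7 genes summed to 124 and 185 CPM in the members, and to 99.6 and 91.8 CPM in excitatory neurons, where *Ece1* stood at 78.8 and 66.0 and *Ednrb* at 7.89 and 8.94 CPM. *Edn1*, *Edn2* and *Edn3* had 0 UMIs among 217767 in Control and 1753935 in WMI. *Ednrb*, the B receptor, held 9 UMIs in 7 Control members and 191 UMIs in 105 WMI members, or 41.3 CPM (18.9 to 78.5) and 109 CPM (94.0 to 125), a log2 ratio of 1.40 (0.44 to 2.55). In low-Gfap astrocytes it went from 60.6 to 119 CPM, a log2 ratio of 0.97 (0.67 to 1.27), so that the intervals of the 2 ratios overlapped. *Ednra*, the A receptor, had 7 and 70 UMIs and a log2 ratio of 0.31 (-0.81 to 1.68), but 5 of the 7 UMIs were in 1 Control cell and without it the ratio was 2.09 (0.18 to 5.16). Levels of *Ednra* in excitatory neurons were 2.22 and 4.50 CPM. *Ece1*, the converting enzyme, had 10 and 43 UMIs and a log2 ratio of -0.91 (-1.92 to 0.25). Of the 7 genes only *Ednrb* reached 100 UMIs.

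Of the hypoxia genes, only *Vegfa* had an interval that left out 0. *Vegfa*, the vascular growth factor, was lower, with 30 and 76 UMIs and a log2 ratio of -1.67 (-2.30 to -1.01), against 0.02 in low-Gfap astrocytes, and *Hif1a*, the oxygen-sensitive transcription factor, was at 0.70 (-0.27 to 1.87), an interval that reached 0. The 10 metallothionein and hypoxia genes summed to a log2 ratio of 0.07 (-0.25 to 0.40), and 1 of 4 tested was lower, against 1.44% of all genes. In 3 further lists no tested gene was past 2-fold, a count near the 9.24% and 1.44% of all genes and too small to say anything of these lists. They were radial glia and stem cell genes (5 tested, summed log2 ratio 0.08), Notch and BMP signalling (8 tested, 0.19) and neurotransmitter receptors (8 tested, -0.32). The last included *Grm3*, a metabotropic glutamate receptor, at -0.66 and *Gria2*, an AMPA receptor subunit, at -0.64.

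**Figure D3:**
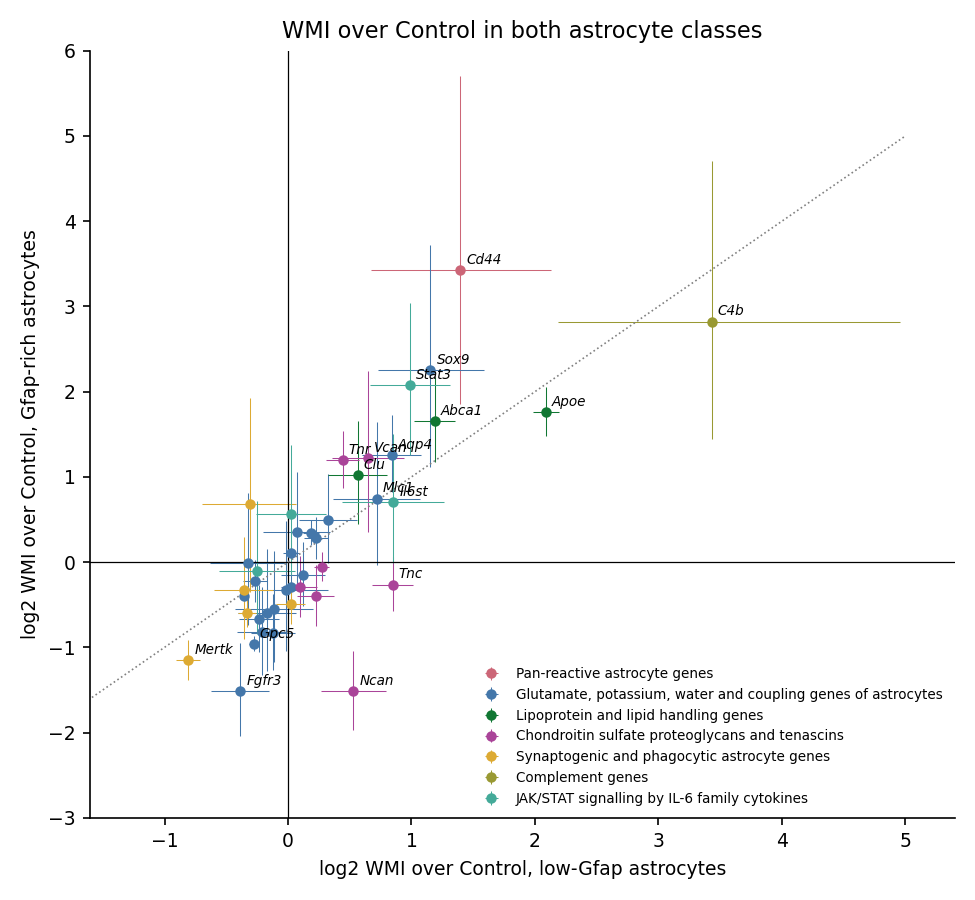
Log2 ratio of WMI over Control in low-Gfap astrocytes (horizontal axis) and in Gfap-rich astrocytes (vertical axis), 1 point per gene of 7 lists with at least 3 member UMIs in each library, bars are 95% intervals and the dotted line marks equal ratios. *Cd44* lay at 1.39 and 3.42, *Ncan* at 0.53 and -1.52, and *Apoe* at 2.09 and 1.76.

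By rank alone, the 10 genes with the highest ratios included *Xist*, the complement C1q genes and unnamed loci. *Xist*, the RNA of the silenced X chromosome of females, had 0 UMIs in Control members and 1545 in WMI, and the sexes of the cells are described below. *C530044C16Rik* had 1 and 253 UMIs (4.97), *2610307P16Rik* 1 and 136 (4.08) and *Gdpd2*, a phosphodiesterase, 1 and 111 (3.78). *Sulf1*, which removes sulfate from heparan chains, had 2 and 262 UMIs, a log2 ratio of 4.02. The lowest, besides *Msmo1*, *Acss2*, *Vegfa*, *Ncan* and *Fgfr3*, were *Kcnj6*, a potassium channel, at -1.90, *Clmn* at -1.81, *Zbtb16*, a zinc finger transcription factor, at -1.75, *Gm20713* at -1.69 and *St3gal4*, a sialyltransferase, at -1.53. *Zbtb16* and *Gm20713* were also lower in low-Gfap astrocytes of WMI, at -1.81 and -1.27.

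Since WMI members held more *Gfap*, the libraries were also compared at like *Gfap*, a comparison chosen after the counts were seen. Members with 2 to 4 *Gfap* UMIs numbered 31 in Control and 119 in WMI, with a median of 3 UMIs in each. Of 1665 genes, 55 were 2-fold or more higher and 15 lower. *A2m* had 0 and 43 UMIs (at least 3.99-fold higher), and the log2 ratios were 2.18 (0.55 to 4.51) for *Cd44*, 1.84 (0.96 to 2.88) for *Stat3*, 1.70 for *Apoe* and 1.25 (0.25 to 2.43) for *Ednrb*. *Msmo1* stood at -1.46, *Ncan* at -1.24, *Trpm3* at -0.89 and *Gpc5* at -0.63. Among 113 named genes with a ratio in both sets of cells, 75 lay nearer to 0 than in all members with the same direction, 26 lay farther from 0 and 12 had the other direction. *C4b* was among those farther from 0, at 4.20 with 1 and 66 UMIs, and *Myoc* among those that turned, at -1.08 (-2.29 to 0.21).

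Within WMI, some levels went with *Gfap* and others did not, which is a description since the rule and the steps use *Gfap*. From cells with 0, 1, 2, 3 to 4, 5 to 9 and 10 or more *Gfap* UMIs, *A2m* stood at 12.2, 29.2, 19.8, 97.6, 165 and 837 CPM. *Cd44* stood at 23.5, 29.2, 56.6, 78.6, 128 and 270 CPM, and *Aqp4* at 150, 218, 232, 377, 490 and 746 CPM. *Gpc5* went down from 5636 and 5664 to 4422, 3558, 2749 and 1937 CPM, and *Trpm3* from 1048 to 310 CPM. *Acsbg1*, a given marker and a gene of the rule, stood at 179, 195, 158, 125, 101 and 111 CPM. *Ednrb*, by contrast, stood at 101, 151, 99, 114, 126 and 96.7 CPM and *Apoe* at 1472, 1597, 1565, 1665, 2079 and 1419 CPM, without such an order. *A2m* was highest in the cells with the most *Gfap*. In Control, *Gpc5* was at 6819, 7036, 8447, 4298 and 1905 CPM over the 5 classes that held cells. *Trpm3* was higher in Control at 0 *Gfap* UMIs (1717 against 1048 CPM), at 1 (1367 against 678) and at 2 (1758, 1495 to 2054, against 671, 588 to 762), with intervals apart. At 3 to 4 UMIs the intervals overlapped (633, 494 to 800, against 564, 490 to 646), and at 5 to 9 Control had 2 UMIs of it in 3 cells.

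**Figure D4:**
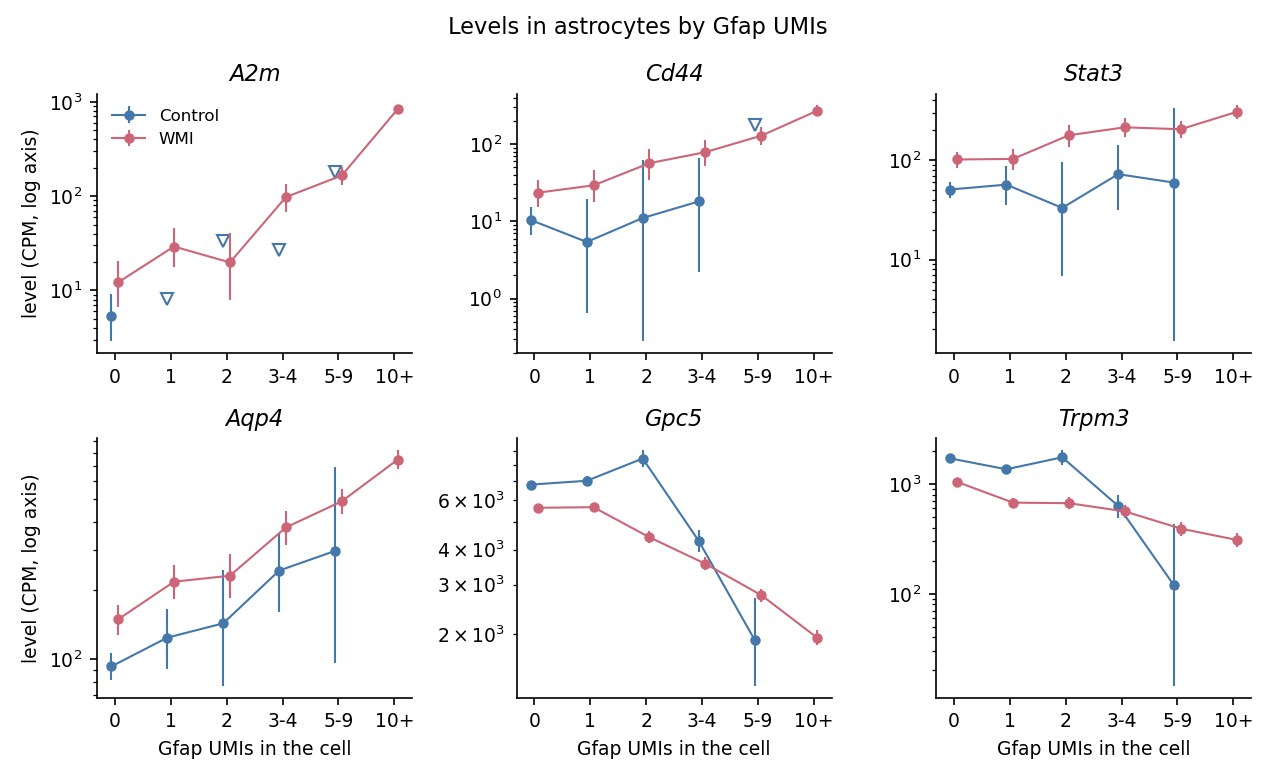
Levels in CPM (log axis, exact Poisson intervals) of selected genes by the number of *Gfap* UMIs in the cell, for Control and WMI astrocytes. In WMI *A2m* was at 12.2 CPM in cells without *Gfap* and 837 CPM in cells with 10 or more UMIs, while *Gpc5* was at 5636 and 1937 CPM.

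Against low-Gfap astrocytes of the same library, few genes were past 2-fold in both libraries. Of 4588 genes with at least 100 UMIs over both classes in each library, 10 (0.218%) were 2-fold or more higher and 3 (0.0654%) lower in both, against 43 (0.937%) higher and 179 (3.90%) lower in Control taken by itself and 51 (1.11%) and 21 (0.458%) in WMI taken by itself. The higher genes were *Pdgfd*, a ligand of the PDGF beta receptor (log2 ratios of 2.45 in Control and 1.70 in WMI), *Disp3* (1.92 and 1.66), *Igfbp5*, an insulin-like growth factor binding protein (1.27 and 1.67), *Eya4* (1.45 and 1.22), *Tab2* (1.28 and 1.22), *Cmya5* (1.75 and 1.12), *Il6st* (1.22 and 1.07), *A330093E20Rik* (1.02 and 1.02), *Angpt1*, an angiopoietin (1.02 and 1.28) and *Pxdn*, a matrix peroxidase (1.01 and 1.32). *Pdgfd* and *Angpt1* each rested on 11 Control members. Without the Control member with the most UMIs of the gene, the Control ratio was 0.41 for *Angpt1*, 0.62 for *A330093E20Rik* and 0.59 for *Pxdn*, no longer past 2-fold, and lay between 1.02 and 2.08 for the other 7 genes.

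The genes lower in both were *Eogt*, a glycosyltransferase of grey matter astrocytes (-1.89 and -1.50), *Unc13c* (-1.05 and -1.12) and *Gm12239* (at the 2-fold limit in Control and -1.21 in WMI). The minimum counts the UMIs of both classes, so that genes low in the few Control members pass it through low-Gfap cells, and *Eogt* and *Gm12239* had 6 and 4 UMIs in the Control members, 3 of the 4 in 1 cell. The next in order were *Grin2c*, an NMDA receptor subunit of astrocytes (-0.99 and -1.32), and *Cyp4f15* (-0.90 in Control, on 6 UMIs). They were followed by *Gabbr2*, a GABA-B receptor subunit (-0.90 and -1.05). The grey matter list was lower in the members for 10 of 10 genes in both libraries, against 32.4% of all 4588 genes, and *Eogt* alone was past 2-fold in both. Among them were *Slc7a10*, a transporter of serine and glycine, at -0.60 and -1.03, *Trpm3* at -0.65 in Control and *Chrdl1*, an astrocyte signal for synapse maturation, at -0.80 and -1.31. Of the white matter and pial list 3 of 3 tested genes were higher in both, against 25.2% of all genes, and none was past 2-fold in both. Among them were *Id3* (1.47 and 0.92), a target of BMP signalling, and *Tnc*, tenascin-C (1.19 and 0.08). Below the minimum, *Id1*, another BMP target, stood at 2.01 and 2.28, and *Myoc*, myocilin, at 3.96 and 2.86. Without the Control member with the most UMIs these Control ratios were 1.45 on 4 UMIs and 2.86 on 5. *Bmpr1a*, a BMP receptor, stood at 1.22 and 0.73.

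**Figure D5:**
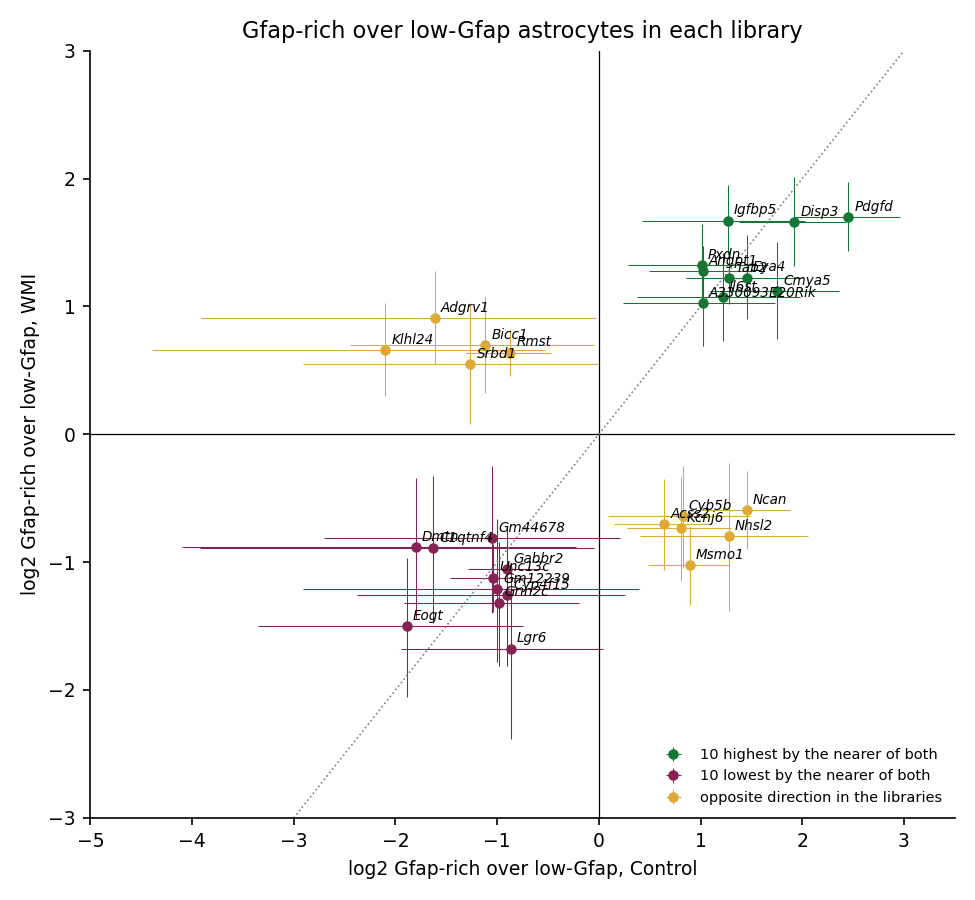
Log2 ratio of Gfap-rich over low-Gfap astrocytes in Control (horizontal axis) and WMI (vertical axis), for the 10 genes highest and the 10 lowest in both libraries and the 11 genes that went opposite ways, bars are 95% intervals. *Eogt* lay at -1.89 and -1.50 and *Pdgfd* at 2.45 and 1.70, whereas *Ncan* lay at 1.45 and -0.59.

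Markers of other cell types were counted in the members. The 8 microglia markers gave 24 UMIs in Control and 892 in WMI, or 110 and 509 CPM, a log2 ratio of 2.21 (1.62 to 2.86), and all 8 had a UMI in each library. They were also higher in WMI in low-Gfap astrocytes (173 and 556 CPM) and excitatory neurons (119 and 283 CPM). At least 2 microglia markers were in 11.8% and 68.2% of members, 17.6% and 60.7% of low-Gfap astrocytes and 25.3% and 74.8% of excitatory neurons. *C1qa*, a microglial complement gene, had 1 and 173 UMIs, and in excitatory neurons it went from 9.33 to 47.0 CPM. The part of microglial RNA in the values above was not tested.

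The remaining marker lists were counted in the same way. The 6 oligodendrocyte markers were at 271 and 363 CPM, the 6 markers of oligodendrocyte precursors at 170 and 365, led by *Lhfpl3*, the 6 excitatory neuron markers at 459 and 362, led by *Camk2a*, and the neuroblast markers at 96.4 and 134, led by *Dcx*. Inhibitory neuron markers, led by *Adarb2*, were at 179 and 251 CPM. The excitatory list holds *Slc17a7* and the inhibitory list *Gad1* and *Gad2*. The rule limits these genes, so that part of these neuronal levels was set by it. Pericyte markers gave 20 and 113 UMIs (91.8 and 64.4 CPM) and endothelial markers 4 and 11 (18.4 and 6.27 CPM). Fibroblast markers gave 3 and 68 UMIs (13.8 and 38.8 CPM). Ependymal markers gave 0 and 18 UMIs and choroid plexus markers 0 and 3, or 10.3 and 1.71 CPM in WMI. At least 2 ependymal markers were in 0 and 0.365% of members, and at least 2 endothelial or choroid plexus markers in none.

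The libraries also differed in sex. Of the 34 Control members none held *Xist* and 31 held a Y-linked gene, whereas among 274 WMI members 195 held *Xist*, 187 a Y-linked gene and 115 (42.0%) both. Without *Xist*, 72 WMI members with a Y-linked gene could be set against the Control members. *A2m* stood at 334 CPM in these 72, at 362 in the 80 with *Xist* alone and at 320 in those with both, and *Gfap* at 1313, 1277 and 1199 CPM. Whether the cells with RNA of both sexes held free RNA or were doublets was not tested.

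A caller of doublets marked 4 of 34 Control members (11.8%) and 23 of 274 WMI members (8.39%), and these were kept in the values above. The libraries shared 36 barcodes, 2 of them among the WMI members and none among the Control members. The dividing cell genes *Mki67* or *Top2a* had a UMI in 0 of 34 Control members and in 11 of 274 WMI members (4.01%, 2.02 to 7.07%). By the same reading as 3 cells, the Control count allows a share of up to 8.82%, and its Clopper-Pearson interval reaches 10.3%. The 10 cell cycle genes gave 3 and 58 UMIs in all.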

How the data were processed

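The deposited values are unscaled counts of UMIs for each gene in each barcode, and per the file headers they were written by Cell Ranger 6.1.1. Per the labels the processing notes also name Seurat and the build mm9, whereas all 55450 identifiers, each with its symbol, were found in GENCODE M21, which annotates GRCm38. In the methods text each group has 4 replicates, but only 1 library of each was analysed here. Groups were taken from the labels. There were 10288 Control and 8354 WMI barcodes, and after the limits on UMIs, genes and mitochondrial share 9540 and 8113 remained, with medians of 4727.5 and 5267 UMIs.

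The rule for the members, the gene lists and the comparisons were chosen with earlier results of these data known. Counts were summed over the cells of a class and library and divided by all their UMIs. Shares have Clopper-Pearson, levels exact Poisson and ratios conditional exact binomial 95% intervals. The bound of a gene with 0 UMIs used 3 UMIs over the group and is not the limit of an exact interval. For *A2m* it was a log2 ratio of 4.59, where the exact interval began at 4.29. Where WMI over Control is given without the Control cell with the most UMIs, no WMI cell was left out. That step by itself tends to raise the ratio. Excitatory neurons held at least 3 UMIs of *Slc17a7*, at most 1 of *Gad1* and *Gad2* and at most 1 of the 8 astrocyte genes. Microglia and oligodendrocyte lineage cells held at least 3 of their own genes, at most 1 astrocyte gene and at most 2 neuronal UMIs. A cell could belong to both of these classes. At least 2 microglia markers were in 22.0% of oligodendrocyte lineage cells in Control and 70.1% in WMI. Genes named are those of the lists and the 10 highest and 10 lowest of each comparison, and, in the closing section, those whose ratio to low-Gfap astrocytes went opposite ways in the libraries. The 9 genes of the rule were left out of counts of genes. A doublet caller compared each cell of a library with simulated pairs of cells (2 for every cell) among 30 neighbours in 30 principal components and marked 0.8% per 1000 barcodes, and marked cells were kept, with their removal as an alternative. In all, 16 alternatives were planned and 3 were added after seeing the data. The code was tested on simulated data and used Python 3.11.15, numpy 2.4.6, pandas 2.3.3, scipy 1.17.1, scikit-learn 1.9.0 and matplotlib 3.10.9.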

Additional observations from a re-analysis of the deposited data

Results flagged for a closer look

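In 11 genes the members lay above low-Gfap astrocytes in 1 library and below them in the other, with intervals that left out 0 in both. These genes were picked for that pattern, and the difference between the libraries was not tested. The log2 ratio of Gfap-rich over low-Gfap astrocytes was positive in Control and negative in WMI for *Ncan* (1.45 and -0.59), *Nhsl2* (1.28 and -0.79), *Msmo1* (0.89 and -1.02), *Cyb5b* (0.82 and -0.64), *Kcnj6* (0.80 and -0.73) and *Acss2* (0.65 and -0.70). *Ncan* went from 90.5 to 248 CPM in Control and from 130.5 to 86.7 CPM in WMI, from low-Gfap to Gfap-rich cells, and *Msmo1* from 151 to 280 and from 149 to 73.5 CPM.

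The ratio was negative in Control and positive in WMI for *Klhl24* (-2.10 and 0.66), *Adgrv1*, an adhesion receptor (-1.62 and 0.91), *Srbd1* (-1.27 and 0.55), *Bicc1* (-1.11 and 0.70) and *Rmst*, a long noncoding RNA (-0.87 and 0.64). Apart from *Rmst*, which had 51 UMIs, these rested on 3 to 7 UMIs in the Control members.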

How the results depend on the processing

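The share difference (3.02 points) kept its direction under all alternatives run. It was 3.75 with at least 1 *Gfap* UMI, 2.48 with 3, 1.88 with 5, 2.46 with at least 4 of the 8 astrocyte genes, 1.36 with no neuronal UMI, 1.34 after thinning to 2000 UMIs and 0.413 without members that held markers of other cell types. Genes 2-fold higher in WMI (334) numbered 136 with no neuronal UMI, 177 after thinning, 63 with male cells, 17 without members that held other markers, 826 and 116 at minimums of 50 and 200 UMIs, 1698 with no minimum, 55 at 2 to 4 *Gfap* UMIs, and 212 and 25 at mean levels of 50 and 200 CPM. Genes lower in WMI (52) numbered 156 with at least 5 *Gfap* UMIs, 21 without other markers, 125 and 22 at 50 and 200 UMIs, 1278 with no minimum, 15 at 2 to 4 *Gfap* UMIs, and 86 and 14 at 50 and 200 CPM. Of the genes called under these settings, 14 of 17 higher and 5 of 21 lower without other markers, and 44 of 63 and 13 of 42 with male cells, were among the 334 and 52. Genes higher than in low-Gfap astrocytes in both libraries (10) numbered 20 and 19 with at least 3 and 5 *Gfap* UMIs, 2 with no neuronal UMI, 4 with male cells, 2 without other markers, 16 and 2 at 50 and 200 UMIs, 263 with no minimum and 3 at 2 to 4 *Gfap* UMIs. Those lower in both (3) numbered 1, 12 and 8 with at least 1, 3 and 5 *Gfap* UMIs, 7 after thinning, 0 with male cells, 1 without other markers, 5 with the mean over cells, 9 and 1 at 50 and 200 UMIs and 43 with no minimum. Scaling by the median of ratios, which moved the median log2 ratio from 0.106 to 0.19, gave 380 higher and 42 lower. Removing predicted doublets gave 271 and 55. Fewer cells leave fewer genes past the minimum of 100 UMIs, which lowers these counts by itself.

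Of 1612 values of 117 named genes, 144 had the other sign than in all members, over 56 genes, 28 of them with at least 5 *Gfap* UMIs and 24 after thinning. *Gpc5* was at 0.28 with at least 5 *Gfap* UMIs. In 6 of the 144 the gene was 2-fold or more apart in all members. These were *Unc13c* (1.76) with at least 3 *Gfap* UMIs, *C4b* (-0.19), *Mertk* (2.58), *Trpm3* (1.55) and *Vcan* (-0.26) with at least 5, where 3 Control cells were left, and *Tnr* (-0.37) after thinning, with 8 Control cells. The cause was not tested. No paired analysis was possible because the groups share only replicate number 1, and with 1 library per group no replicate could be left out. At 217767 UMIs in Control members, a gene at up to 13.8 CPM (3 UMIs) can go unseen.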

Other observations

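Of the 72 WMI members with a Y-linked gene and no *Xist*, the levels of *Ednrb* (159 CPM, 123 to 202) and *C4b* (161 CPM) were set beside those of the 80 with *Xist* alone (89.6 CPM, 65.1 to 120, and 136 CPM). *Trpm3* stood at 289 and 405 CPM, *Cd44* at 149 and 149, and *Apoe* at 1872 and 1694. These cells came from 1 library, and how many animals of each sex it held is not given in the labels, so that animals and sex cannot be told apart.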
